A study of Mus musculus with 26 samples.

Results

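The mouse SMYD family, Smyd1, Smyd2, Smyd3, Smyd4 and Smyd5, was followed by RNA-Seq in C2C12 cells, myoblasts of mouse origin that form myotubes once moved to differentiation medium. The 5 genes were chosen by name out of 55341 genes listed in each library, and all 5 passed the filter on low counts in both experiments. For the knockdown, C2C12 cells were transfected with a control siRNA (siCtrl) or with 1 of 2 siRNAs against Smyd3 (siSMYD3#1, siSMYD3#2). This was done while they proliferated and again a day later, at the induction of differentiation. Cells were collected undifferentiated at confluence (0 h) or after 24 h in differentiation medium, with 3 libraries per group and 18 in all. Whether the 0 h cells had received the later transfection is not given in the sources used here. For the overexpression, SMYD3 CL5, a clone transduced with a pREV retroviral vector carrying HA- and Flag-tagged SMYD3, was compared with cells carrying the empty pREV vector, which had also been sub-cloned, at the same time points, with 2 libraries per group and 8 in all. SMYD3 CL5 is 1 clone, so the clone and the transgene cannot be told apart.

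The libraries held between 14315193 and 60398170 counts in the knockdown and between 21124675 and 67853386 in the overexpression. Replicates 1 and 2 of each siRNA group were extracted with NucleoSpin at passage 14 and replicate 3 with TRIzol at passage 11, so extraction and passage cannot be told apart, and all 8 overexpression libraries were extracted with TRIzol. TRIzol and NucleoSpin libraries differed in 51.3% of the 15820 genes tested, and each Smyd1 result below is therefore given within each batch as well. The 4 myoblast markers (Myod1, Myf5, Des and Cdh15) summed to between 216 and 1910 CPM (counts scaled to a common library size) and none was at 0. Of 17 markers of other cell types, Ibsp and Alb were at 0 throughout, and the sum was at most 12.6 CPM except in SMYD3 CL5, where it was 15.4 to 35.9 CPM, with the cardiac factor Nkx2-5 at 11.9 to 30.9 CPM. The methods call the replicates biological, and replicate 3 of the siRNA groups was of another passage. Whether replicates 1 and 2 came from separate cultures is not given in the sources used here, so that p-values may in part measure technical spread.

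SMYD proteins are lysine methyltransferases in which the catalytic SET domain is split by a MYND zinc finger, a module that binds proline-rich partners. They transfer methyl groups from S-adenosylmethionine to lysines of histones and of cytoplasmic proteins. Smyd1 is restricted to heart and skeletal muscle, where it binds the muscle form of the nascent polypeptide complex subunit Naca and is needed for sarcomere assembly. Smyd2 methylates Hsp90, p53 and Rb, Smyd3 methylates histones and the kinase Map3k2, Smyd5 is the member most distant from the others, and Smyd4 is less well characterised.

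The siRNAs are shown first, because they define the knockdown groups. The antisense strands are written 5′ to 3′ with the seed, bases 2 to 8, in capitals.
siSMYD3#1: gUUGGGGUcacagcuguga
siSMYD3#2: uCAAAUCUucaaucaggcu
siCtrl: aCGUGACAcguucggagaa
Among the annotated transcripts of 55450 genes, both Smyd3 siRNAs matched Smyd3 alone over their full 19 bases, and siCtrl matched no gene. Smyd3 (ENSMUSG00000055067) lies on the minus strand of GRCm38 at chr1:178951960-179518041. The siSMYD3#1 site, tcacagctgtgaccccaac, is at chr1:179092935-179092953, in coding exon 7, and is present in 3 of 7 annotated transcripts. The siSMYD3#2 site, agcctgattgaagatttga, is at chr1:178957505-178957523, in coding exon 12, and is present in 4 of the 7. Matches to the seed alone were wider. A site for the siSMYD3#1 seed was present in 3 of 6 annotated Smyd1 transcripts and in 4 of 8 of Smyd5. For the siSMYD3#2 seed it was present in 1 of 4 Smyd4 transcripts, and for the siCtrl seed in 2 of those 4. Any effect of these seed sites on the levels below was not tested. In the other 4 members the best windows for the Smyd3 siRNAs had 5 to 7 mismatches, except that of siSMYD3#1 in Smyd5, which had 2. That window is in coding exon 11 at chr6:85444247-85444265, plus strand, and is printed with its mismatches to the siRNA in capitals.
Smyd5: CcacagctgtgTccccaac

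Smyd3 transcripts were lower with siSMYD3#2 at both times, whereas the libraries labelled siSMYD3#1 stayed close to siCtrl. In siCtrl, Smyd3 was at 20.5, 19.5 and 21.6 CPM at 0 h and at 17.8, 19.9 and 20.7 CPM at 24 h (replicates 1, 2 and 3; levels are scaled by the trimmed mean of M-values, TMM). With siSMYD3#2 it was at 7.56, 8.93 and 6.37 CPM at 0 h and at 5.46, 5.37 and 9.65 CPM at 24 h. All siSMYD3#2 libraries were thus below all siCtrl libraries. The log2 fold change against siCtrl was -1.41 ± 0.164 (SE) at 0 h (adjusted p = 0.000107, edgeR's quasi-likelihood test with Benjamini-Hochberg adjustment over all genes) and -1.51 ± 0.171 at 24 h (adjusted p = 5.1e-05), in comparisons in which 0.531% and 3.7% of all genes passed the threshold of 0.01. Without the extraction term the 0 h difference just missed it (adjusted p = 0.0113).

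The libraries labelled siSMYD3#1 held 19.3, 16.9 and 19 CPM of Smyd3 at 0 h and 15.2, 15.1 and 19.3 CPM at 24 h. At 0 h all 3 lay below the 3 siCtrl libraries, and at 24 h the groups overlapped. The difference from siCtrl was -0.16 ± 0.157 at 0 h (95% interval -0.49 to 0.17, edgeR adjusted p = 0.785) and -0.24 ± 0.161 at 24 h (-0.57 to 0.10, adjusted p = 0.414), where 1.43% and 5.85% of genes passed. In these libraries the Smyd3 transcript therefore checks the siSMYD3#2 label and gives no such check of siSMYD3#1. The paper also measured Smyd3 by qPCR and SMYD3 protein by western blot in its knockdown cells, which the counts do not show. Directions given below for siSMYD3#1 rest on its label. Between the siRNAs, Smyd3 was higher with siSMYD3#1 by 1.26 ± 0.165 at 0 h (edgeR adjusted p = 0.000236) and 1.27 ± 0.171 at 24 h (adjusted p = 0.000176), where 1.17% and 3.36% of genes passed.

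Smyd3 did not pass the test between 24 h and 0 h in any of the 5 lines or treatments, with log2 changes between -0.17 and 0.04. Within the NucleoSpin libraries alone, Smyd3 with siSMYD3#2 changed by -0.63 from 0 h to 24 h (edgeR adjusted p = 0.00318), whereas the TRIzol replicate changed by 0.59. In the vector line Smyd3 was at 19.2 and 16.7 CPM at 0 h and 17.1 and 18.2 CPM at 24 h. SMYD3 CL5 held 16.9 and 27.1 CPM at 0 h and 24.3 and 21 CPM at 24 h, and differed from vector by 0.29 ± 0.271 (edgeR adjusted p = 0.593) and 0.36 ± 0.271 (adjusted p = 0.671). The species of the SMYD3 cDNA is not given in the sources used here, so these counts are no check of the transgene.

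**Figure D1:**
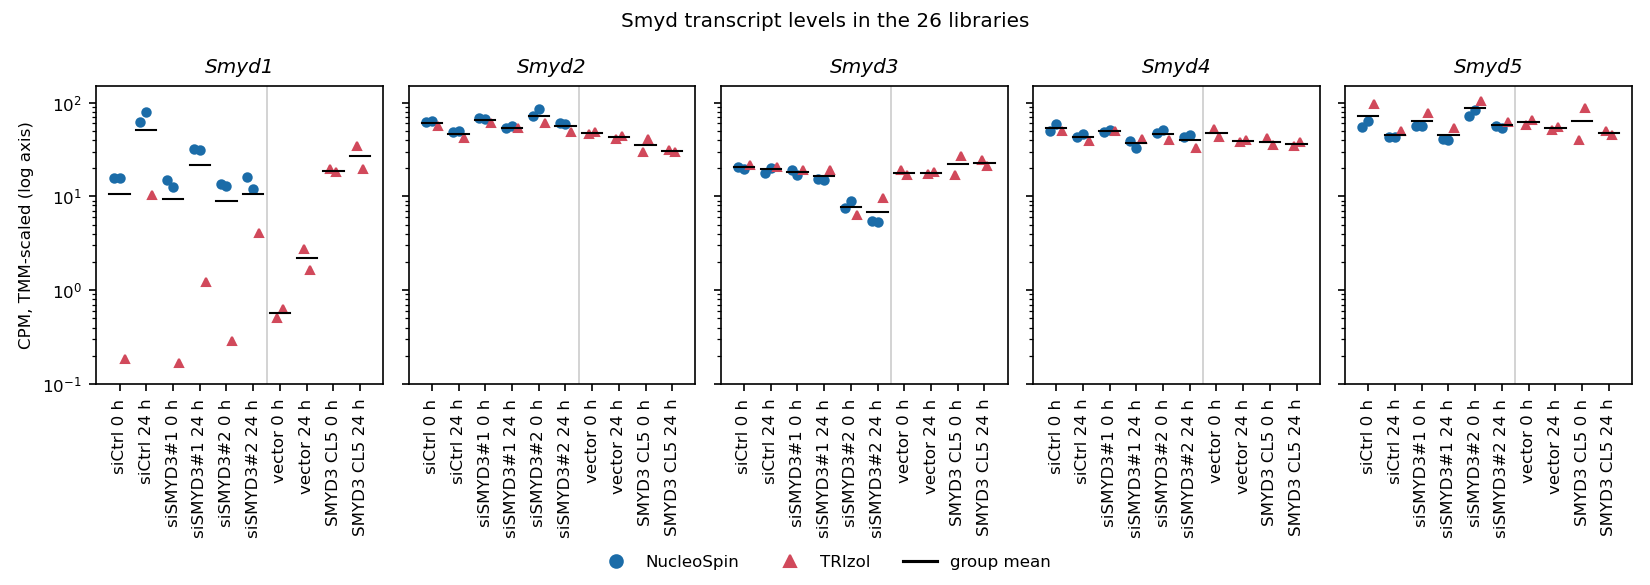
TMM-scaled CPM (log axis) of each SMYD gene in all 26 libraries by group, with circles for NucleoSpin and triangles for TRIzol extraction and bars for group means. Smyd1 spans 0.169 to 79.5 CPM, whereas Smyd4 stays between 32.7 and 59.2 CPM, and Smyd3 is low with siSMYD3#2.

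Smyd1 (ENSMUSG00000055027, chr6:71213940-71322233, minus strand of GRCm38) was the most variable member: its highest library was 470 times its lowest, against ratios of 1.81 to 5.05 for the other 4 genes. The highest was a NucleoSpin siCtrl library at 24 h and the lowest a TRIzol siSMYD3#1 library at 0 h with 5 counts. The ratio thus takes in batch, treatment and time. Within the NucleoSpin libraries Smyd1 ranged from 12 to 79.5 CPM. It rose during differentiation of siCtrl cells. Replicates 1 and 2 (NucleoSpin) went from 15.6 and 15.7 CPM at 0 h to 61.7 and 79.5 CPM at 24 h, and replicate 3 (TRIzol) from 0.184 CPM, which is 5 counts, to 10.4 CPM. All 3 replicates were higher at 24 h, but the TRIzol library at 24 h lay below the NucleoSpin libraries at 0 h. Across batches the change was 2.67 ± 0.598 on the log2 scale, or 6.39-fold (edgeR adjusted p = 0.00322), in a comparison in which 29.4% of genes passed, and within NucleoSpin libraries it was 2.15 (adjusted p = 5.8e-09), where 33.2% passed. The call was lost when any siCtrl library other than replicate 1 at 24 h was left out (adjusted p = 0.01 to 0.0141). It was also lost without the extraction term (2.26, adjusted p = 0.323).

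The level of Smyd1 itself differed between the batches. In the 6 NucleoSpin libraries at 0 h it ranged from 12.7 to 15.7 CPM, and in the 3 TRIzol libraries at 0 h from 0.169 to 0.29 CPM. The extraction term was -3.63 ± 0.451 (TRIzol minus NucleoSpin, edgeR adjusted p = 1.7e-05). The summed myoblast markers moved with it, from 1150 to 1910 CPM in the NucleoSpin libraries to 216 to 554 CPM in the TRIzol libraries of the knockdown, and their part in the Smyd1 result was not tested. In the same batches Smyd2 differed by -0.20 (adjusted p = 0.00223) and Smyd5 by 0.41 (adjusted p = 1.24e-05), while Smyd3 and Smyd4 did not pass. The change of Smyd1 from 0 h to 24 h was larger in TRIzol than in NucleoSpin libraries by 3.17 ± 0.796, which did not pass (edgeR adjusted p = 0.015, with 10.3% of genes passing).

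With the Smyd3 siRNAs the 24 h level of Smyd1 was lower than in siCtrl in every same-numbered pair. siSMYD3#1 libraries held 15.1, 12.7 and 0.169 CPM at 0 h and 32.1, 31.1 and 1.23 CPM at 24 h. siSMYD3#2 libraries held 13.4, 12.9 and 0.29 CPM at 0 h and 16, 12 and 4.12 CPM at 24 h. At 0 h the NucleoSpin libraries of both siRNAs lay just below the siCtrl pair. The change from 0 h to 24 h did not pass with either siRNA (siSMYD3#1 1.21 ± 0.597, edgeR adjusted p = 0.131; siSMYD3#2 0.82 ± 0.641, adjusted p = 0.358), where 25.4% and 19% of genes did. Within NucleoSpin the siSMYD3#1 change passed (1.16, edgeR adjusted p = 7.52e-06), where 34.8% of genes passed. That of siSMYD3#2 was 0.056 within NucleoSpin (adjusted p = 0.797), and the same-numbered log2 ratios were 0.257 and -0.107 there and 3.52 in the TRIzol pair, which held 6 counts at 0 h. The pooled siSMYD3#2 change was 0.14 without that group's replicate 3 at 24 h and 1.31 without its replicate 2 at 24 h, the lowest and highest with 1 library left out.

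Against siCtrl at 24 h, Smyd1 differed by -1.64 ± 0.572 with siSMYD3#1 (95% interval -2.89 to -0.40, edgeR adjusted p = 0.0924) and by -2.04 ± 0.61 with siSMYD3#2 (-3.36 to -0.71, adjusted p = 0.0596). Neither passed the threshold, and 5.85% and 3.7% of genes did. Within the NucleoSpin libraries both differences passed, at -1.15 (adjusted p = 1.56e-05) and -2.33 (adjusted p = 2.43e-08), where 11.6% and 8.38% of genes passed. In the TRIzol libraries, 1 per group and so without a test, the log2 ratios were -3.01 and -1.32. Leaving out the TRIzol library of siSMYD3#2 at 24 h brought that siRNA past the threshold (-2.87, adjusted p = 0.00797), and so did a term for extraction by time for both siRNAs (adjusted p = 0.0083 and 0.00201), an alternative chosen after seeing the data. DESeq2 called neither (adjusted p = 0.0864 and 0.16). The paper also measured family members by qPCR, which the counts do not show. It reports Smyd1 as significantly lower after SMYD3 silencing and strongly higher in its overexpressing cells, and Smyd2 and Smyd4 as unaffected.

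The order of the 2 siRNAs at 24 h was opposite in the batches. The log2 ratio of siSMYD3#1 to siSMYD3#2 was 1 and 1.37 in the NucleoSpin pairs and -1.69 in the TRIzol pair. Pooled it was 0.39 ± 0.618 (edgeR adjusted p = 0.781), while within NucleoSpin it was 1.18 (adjusted p = 4.15e-05, 9.76% of genes passing). For the difference between the 24 h and 0 h effects of the siRNAs, 0 of 5 members passed with edgeR or DESeq2 and 0 had an unadjusted p under 0.05: Smyd1 had the lowest edgeR adjusted p, 0.499, for siSMYD3#2 (-1.85 ± 0.852), in comparisons in which 0.215% (siSMYD3#1) and 0.019% (siSMYD3#2) of genes passed. Within NucleoSpin that of siSMYD3#2 passed (-2.10, adjusted p = 2.5e-05, 1.15% of genes).

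**Figure D2:**
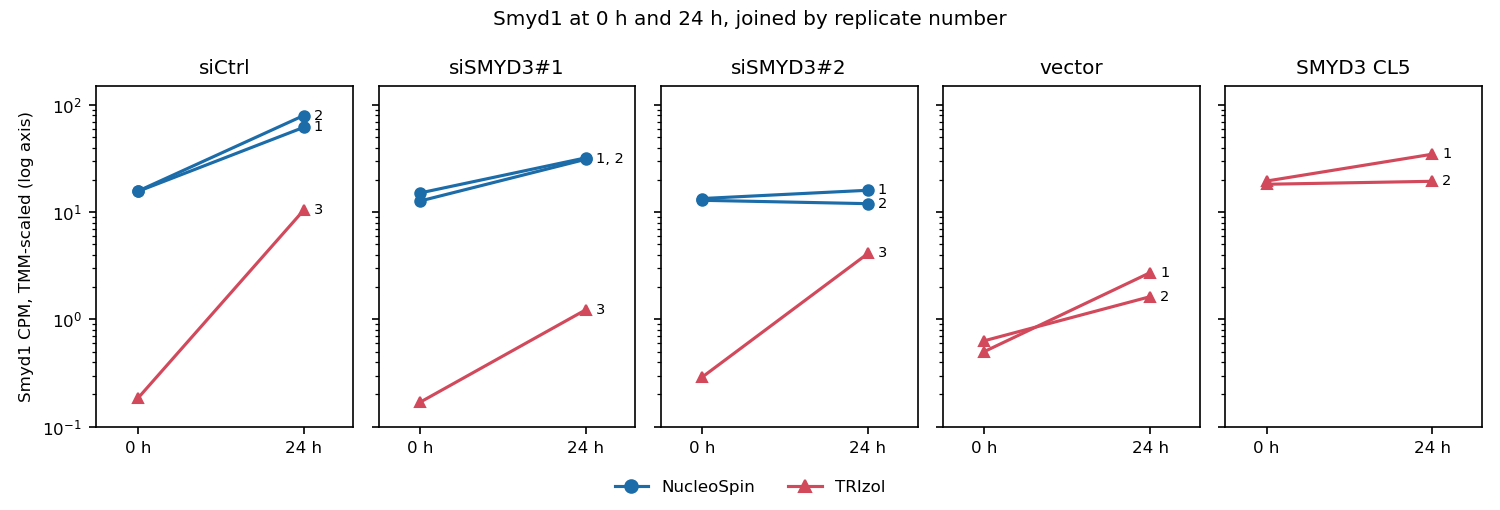
Smyd1 in TMM-scaled CPM (log axis) at 0 h and 24 h, with lines joining libraries of the same replicate number and the number beside the 24 h point, in circles for NucleoSpin and triangles for TRIzol. Replicate 3 starts at 0.169 to 0.29 CPM in the siRNA groups, where replicates 1 and 2 start at 12.7 to 15.7 CPM, and the vector line starts far below SMYD3 CL5.

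In the overexpression, Smyd1 was the member that differed between the lines. Vector cells held 0.502 and 0.633 CPM at 0 h and 2.73 and 1.63 CPM at 24 h, and SMYD3 CL5 held 19.5 and 18.2 CPM at 0 h and 34.7 and 19.4 CPM at 24 h. Even the undifferentiated SMYD3 CL5 libraries were above the vector libraries at 24 h. Smyd1 was 32.9-fold higher in SMYD3 CL5 at 0 h (log2 5.04 ± 0.443, edgeR adjusted p = 0.00219) and 12.5-fold higher at 24 h (3.64 ± 0.399, adjusted p = 0.00517), where 1.07% and 0.964% of genes passed. It was 1 of 5 members that passed at each time. The 0 h call was lost without either vector library at 0 h (adjusted p = 0.0371 and 0.0359), and the 24 h call without any of the 4 libraries at 24 h or either vector library at 0 h (adjusted p = 0.0172 to 0.0525), while the difference stayed between 3.16 and 5.22. DESeq2 gave 5.12 and 3.64, both past the threshold.

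No gene passed between 24 h and 0 h in the vector line or in SMYD3 CL5 with edgeR (0% of 17835 genes each), although 1256 and 1137 genes had an unadjusted p under 0.05 and DESeq2 called 112 and 96. Smyd1 changed by 1.92 ± 0.413 in the vector line (edgeR adjusted p = 0.374) and by 0.52 ± 0.357 in SMYD3 CL5 (adjusted p = 0.903). With DESeq2 the change in the vector line passed (1.96, adjusted p = 0.00466). The difference of the SMYD3 CL5 effect between the times was -1.40 ± 0.542 for Smyd1 (edgeR adjusted p = 1), in a test in which 0% of genes passed, 312 had an unadjusted p under 0.05 and DESeq2 called 2.

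Smyd1 was set beside Myog, the myogenic factor that switches on terminal differentiation. Over the 26 libraries, with log2 CPM centred within experiment and extraction method, r was 0.859. These libraries share treatments, time points and depth, and the value is a description. At 24 h Myog was at 222, 262 and 55.6 CPM in siCtrl, at 19.8, 17.2 and 5.64 CPM with siSMYD3#1 and at 48.6, 45.2 and 31.1 CPM with siSMYD3#2. The NucleoSpin libraries with siSMYD3#1 therefore held less Myog than those with siSMYD3#2 but more Smyd1. The TRIzol library with siSMYD3#1 held less Myog and also less Smyd1 (1.23 against 4.12 CPM). At 0 h the NucleoSpin libraries held 1.01 to 1.87 CPM of Myog beside 12.7 to 15.7 CPM of Smyd1, a level of Smyd1 above that of the TRIzol siCtrl library at 24 h with 55.6 CPM of Myog. That comparison crosses the batches, which differed in Smyd1 itself.

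The myocyte markers Myog, Mymk, Myh3 and Ckm moved with Smyd1, and their part in its differences was not tested. At 24 h, where 5.85% (siSMYD3#1) and 3.7% (siSMYD3#2) of all genes passed, all 4 were lower with each siRNA than in siCtrl. Their sum at 24 h was 219 to 716 CPM in siCtrl, 22.9 to 44.9 CPM with siSMYD3#1 and 94.2 to 104 CPM with siSMYD3#2, after 0.957 to 3.1 CPM at 0 h in these groups. In the vector line it was 0.659 to 1.39 CPM at 0 h and 14.7 to 19.9 CPM at 24 h, and in SMYD3 CL5 29.1 to 158 CPM and 298 to 399 CPM. None of the 4 was at 0 in all libraries of a group. SMYD3 CL5 thus held myocyte markers at 0 h, and in bulk RNA more differentiated cells and more RNA per cell cannot be told apart.

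**Figure D3:**
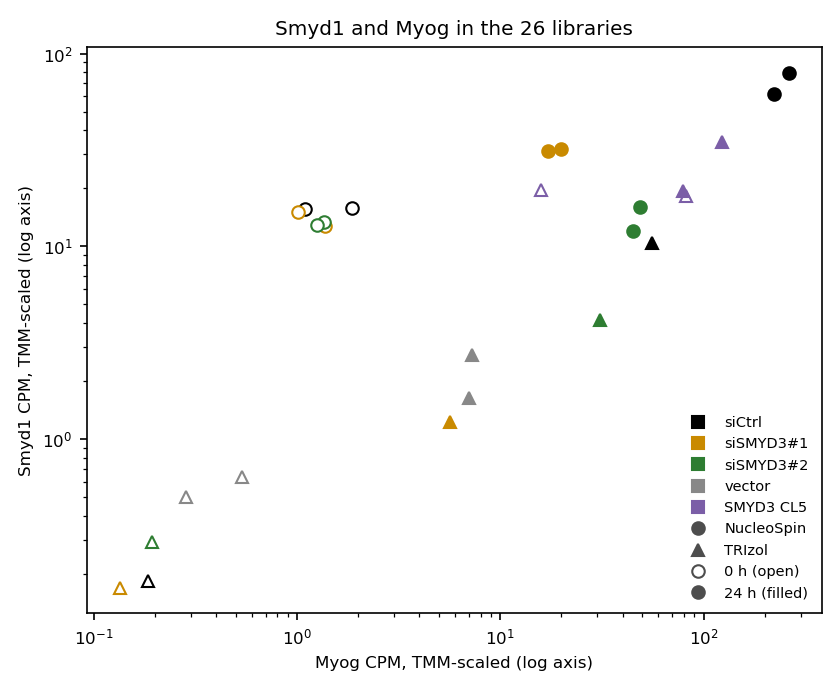
Smyd1 against Myog in the 26 libraries (both TMM-scaled CPM on log axes), coloured by treatment or line, with circles for NucleoSpin, triangles for TRIzol, open symbols for 0 h and filled ones for 24 h. The 6 NucleoSpin libraries at 0 h stand apart at 12.7 to 15.7 CPM of Smyd1 with 1.01 to 1.87 CPM of Myog.

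Among 22 tested muscle differentiation genes, 22 rose in siCtrl from 0 h to 24 h (median log2 change 5.55, against 0.03 over all genes). In that comparison 29.4% of all genes passed. The list was chosen with earlier results of these data known. The paper names Ryr1 and Klhl41 among the genes that changed in both its knockdown and its overexpression. The counts for this list are therefore a description and no independent support. At 24 h, 21 of the 22 were lower with siSMYD3#1 (median -2.87, all genes 0.00) and 20 with siSMYD3#2 (median -2.00, all genes 0.00). Of all genes, 5.85% and 3.7% passed in these comparisons. Ckm, muscle creatine kinase, differed from siCtrl by -3.80 and -2.26, and Ryr1, the calcium release channel of the sarcoplasmic reticulum, by -3.07 and -2.00. In SMYD3 CL5, 4 of 24 were higher than in vector at each time with edgeR (1.07% of all genes passing at 0 h and 0.964% at 24 h), whereas 23 and 24 had an unadjusted p under 0.05 and DESeq2 called 22 at 0 h and 23 at 24 h. Among the 4 was Klhl41 (4.14 at 0 h and 4.50 at 24 h), and the medians were 4.22 and 4.30 against -0.03 and 0.01 over all genes. Of 8 factors reported at the Smyd1 promoter, Mef2a rose in siCtrl by 1.57 and was lower at 24 h with siSMYD3#1 (-0.98, edgeR adjusted p = 0.00144) and siSMYD3#2 (-0.81, adjusted p = 0.00831). Myog was also lower, with log2 differences of -3.59 and -1.81. In siCtrl 3 of the 8 rose and 1, Srf, fell (-0.40), beside 29.4% of all genes.

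RefSeq promoter windows were at hand for 4 members (GRCm38.p6), and those of Smyd1 and Smyd4 are printed because the genes stand at the ends of the family in variability. Each is 250 bases before the start, with CpG in capitals.
Smyd1, chr6:71262282-71262531, minus strand: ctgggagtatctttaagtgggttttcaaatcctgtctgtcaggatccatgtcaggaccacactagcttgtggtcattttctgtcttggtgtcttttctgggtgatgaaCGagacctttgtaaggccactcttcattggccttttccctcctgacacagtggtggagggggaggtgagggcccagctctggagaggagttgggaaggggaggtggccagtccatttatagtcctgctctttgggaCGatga
Smyd4, chr11:75348183-75348432, plus strand: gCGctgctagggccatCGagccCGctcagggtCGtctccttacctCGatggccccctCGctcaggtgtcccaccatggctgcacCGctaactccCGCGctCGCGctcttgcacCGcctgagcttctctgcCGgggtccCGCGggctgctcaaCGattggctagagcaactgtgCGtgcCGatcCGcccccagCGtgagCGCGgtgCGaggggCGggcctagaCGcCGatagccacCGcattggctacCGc
The Smyd1 stretch holds 2 CpG and that of Smyd4 holds 28. In the full windows of 300 bases, which add 50 bases after the start, Smyd1 had 3, Smyd5 13, Smyd4 34 and Smyd2 43 CpG. Of 32851 such windows, 31.4% had as few as Smyd1 or fewer, and 63.7%, 93.0% and 97.8% as few as Smyd5, Smyd4 and Smyd2. The Smyd1 window lies inside the gene span given above, not at its upstream end. The E-box CANNTG, searched on both strands, was found 0 times in Smyd1 and Smyd2, 3 times in Smyd4 and 1 time in Smyd5, and 72.3% of windows hold one. The MEF2 and CArG motifs, held by 3.2% and 1.6% of windows, were in none of the 4. These matches describe letters in these windows only.

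Smyd2, Smyd5 and Smyd4 had negative log2 changes from 0 h to 24 h in all 3 siRNA treatments, past the threshold in all 3 for Smyd5, in 2 for Smyd2 and in 1 for Smyd4. Smyd2 (ENSMUSG00000026603, chr1:189880492-189922363, minus strand) was at 61.6, 63.1 and 56.4 CPM at 0 h and 48.5, 49.2 and 41.5 CPM at 24 h in siCtrl, so that the 24 h libraries were all below the 0 h libraries. The log2 change was -0.38 ± 0.084 in siCtrl (edgeR adjusted p = 0.00118), -0.27 ± 0.083 with siSMYD3#1 (adjusted p = 0.0163) and -0.37 ± 0.083 with siSMYD3#2 (adjusted p = 0.00233), so siSMYD3#1 did not pass. It passed when the siSMYD3#1 library of replicate 3 at 24 h (-0.35, adjusted p = 0.00514) or the siSMYD3#2 library of replicate 2 at 0 h (-0.28, adjusted p = 0.00545) was left out. The siSMYD3#2 call was lost without that group's replicate 2 at 0 h (-0.29, adjusted p = 0.0146) or replicate 3 at 24 h (-0.37, adjusted p = 0.0124).

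At 24 h Smyd2 was at 53.7, 55.7 and 52.9 CPM with siSMYD3#1 and at 60.1, 58.6 and 48.6 CPM with siSMYD3#2, and all siSMYD3#1 libraries were above siCtrl. The differences, 0.23 ± 0.084 (edgeR adjusted p = 0.0943) and 0.26 ± 0.084 (adjusted p = 0.0582), did not pass. In the overexpression, Smyd2 was at 45.8 and 48.5 CPM (0 h) and 41.2 and 44 CPM (24 h) in vector and at 29.5 and 40.4 CPM and 31.2 and 29.9 CPM in SMYD3 CL5. The Smyd2 libraries of SMYD3 CL5 lay below those of vector at each time, with 2 libraries per group. The share of all genes without overlap was not counted, so this separation is no result by itself. The Smyd2 differences from vector did not pass either (-0.43 ± 0.219, edgeR adjusted p = 0.343; -0.48 ± 0.22, adjusted p = 0.396). Smyd2 shares 814 of its 2717 exon bases with Gm37422 on the opposite strand. The strand setting of the counting is not given in the sources used here, and Gm37422, which passed no test, held counts equal to 6.02% to 33.8% of those of Smyd2 by group.

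Smyd5 (ENSMUSG00000033706, chr6:85431989-85446435, plus strand) fell in all 3 siRNA treatments. In siCtrl it was at 54.9, 63.1 and 96.8 CPM at 0 h and 42.4, 43.1 and 49.6 CPM at 24 h, and the groups did not overlap although the TRIzol library at 0 h was the highest. The change was -0.64 ± 0.101 in siCtrl (edgeR adjusted p = 5.6e-05), -0.49 ± 0.101 with siSMYD3#1 (adjusted p = 0.000945) and -0.59 ± 0.1 with siSMYD3#2 (adjusted p = 0.000263). No library left out alone ended these calls.

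Between the siRNAs, Smyd5 was lower with siSMYD3#1 throughout, without passing the threshold. With siSMYD3#1 it was at 56, 56.5 and 77 CPM at 0 h and 41.2, 40.1 and 53.3 CPM at 24 h, and with siSMYD3#2 at 72.6, 82.9 and 105 CPM and 55.7, 53 and 62.7 CPM. The siSMYD3#1 library was lower than its same-numbered siSMYD3#2 library in all 6 pairs. The difference was -0.46 ± 0.1 at 0 h (edgeR adjusted p = 0.0153) and -0.36 ± 0.101 at 24 h (adjusted p = 0.0346), neither past 0.01. Within NucleoSpin both passed (-0.48, adjusted p = 0.00632, 2.78% of genes; -0.41, adjusted p = 0.00874, 9.76% of genes), and DESeq2 called the 0 h difference (-0.46, adjusted p = 0.000535). The 0 h difference also passed without replicate 1 or 3 of siCtrl at 0 h, or without replicate 3 of any treatment at 24 h (adjusted p = 0.00476 to 0.00955). Against siCtrl, siSMYD3#1, whose Smyd5 window had 2 mismatches, gave -0.16 ± 0.1 (95% interval -0.37 to 0.05, adjusted p = 0.536) at 0 h and -0.01 ± 0.102 (-0.23 to 0.20, adjusted p = 0.956) at 24 h. siSMYD3#2 gave 0.29 ± 0.099 (adjusted p = 0.232) and 0.34 ± 0.102 (adjusted p = 0.0414).

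In the vector line Smyd5 was at 57 and 65.6 CPM at 0 h and 51.4 and 55.5 CPM at 24 h, and in SMYD3 CL5 at 39.7 and 87.2 CPM and 49.6 and 45 CPM. The 2 undifferentiated SMYD3 CL5 libraries thus lay on either side of vector, and the difference of 0.05 ± 0.349 at 0 h (edgeR adjusted p = 0.952) ran to -0.60 without replicate 2 of SMYD3 CL5. These 2 libraries also differed in Myog (15.9 and 81.9 CPM), in Smyd2 and in Smyd3.

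Smyd4 (ENSMUSG00000018809, chr11:75348433-75405705, plus strand) was the steadiest member. It was at 50.3, 59.2 and 49.7 CPM at 0 h and 42.6, 46.5 and 38.7 CPM at 24 h in siCtrl, and at 48.7, 50.7 and 50.2 CPM and 39, 32.7 and 40.5 CPM with siSMYD3#1, in both cases without overlap between the times. The change passed with siSMYD3#1 only (-0.41 ± 0.114, edgeR adjusted p = 0.00875), and not in siCtrl (-0.32 ± 0.113, adjusted p = 0.0295) or with siSMYD3#2 (-0.21 ± 0.114, adjusted p = 0.172). The siSMYD3#1 call was lost with the replicate number as a block (-0.40, adjusted p = 0.0111), and without any siSMYD3#1 library but replicate 3 at 24 h, replicate 1 or 2 of siCtrl at 24 h, or replicate 1 of siSMYD3#2 at 0 h or 24 h (adjusted p = 0.01 to 0.052). Without replicate 3 of siSMYD3#1 at 24 h, the siCtrl change passed (-0.34, adjusted p = 0.00978). Smyd4 passed no comparison between siRNAs or lines, and the differences of its time effects between siRNAs and siCtrl were -0.09 and 0.11.

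The time effects of Smyd2, Smyd4 and Smyd5 in the vector line and in SMYD3 CL5 were all below 0 (-0.42 to -0.08) and none passed. In the siRNA experiment, 3 of 5 members passed between 24 h and 0 h in siCtrl, 2 with siSMYD3#1 and 2 with siSMYD3#2, set beside the 29.4%, 25.4% and 19% of all genes given above. With all 26 libraries in 1 fit, or without the extraction term, the Smyd2 and Smyd5 changes in siCtrl kept their size but did not pass (adjusted p = 0.0115 to 0.0402).

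**Figure D4:**
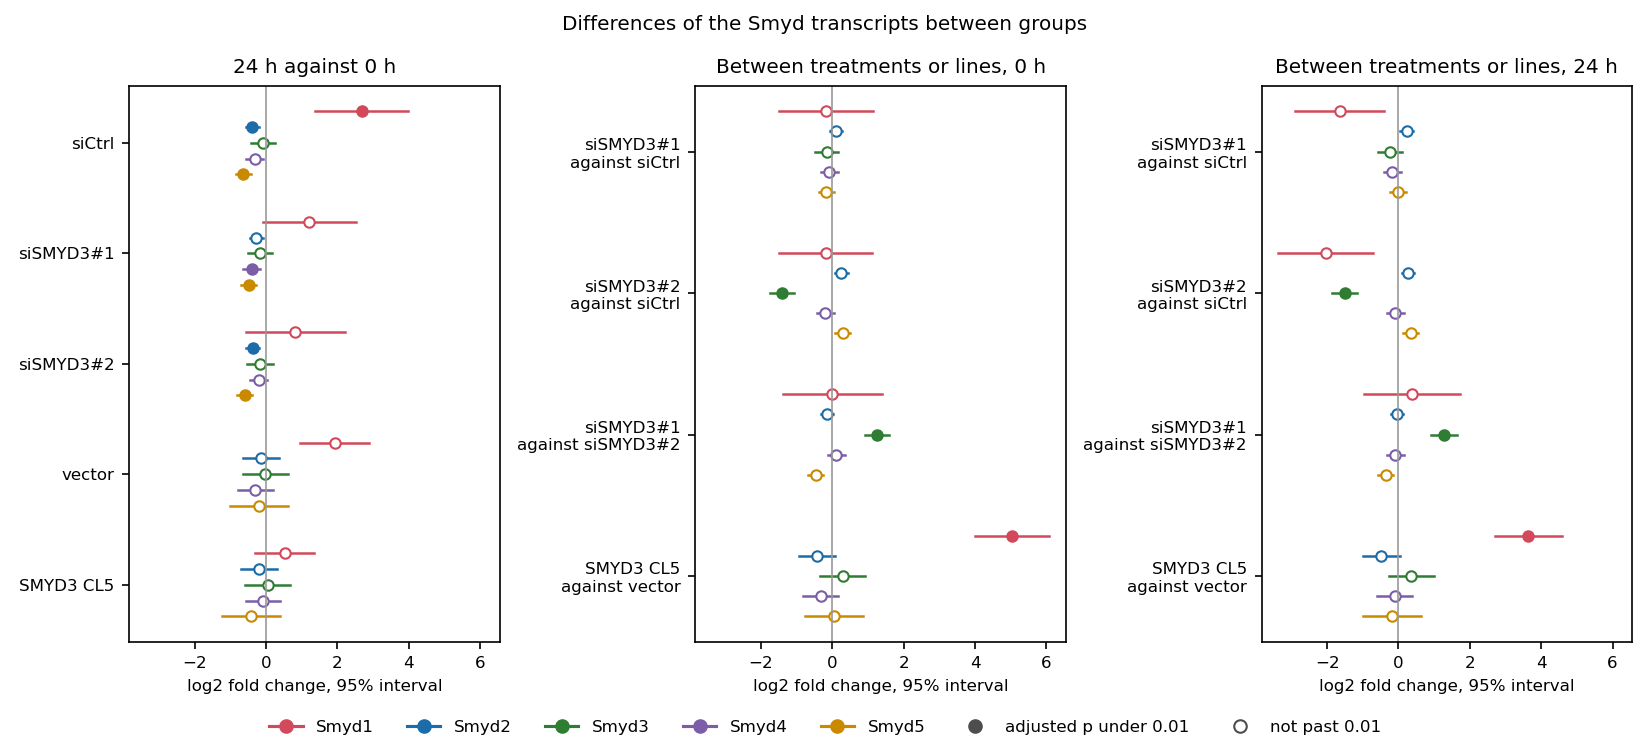
Log2 fold changes of the 5 genes with 95% intervals for the change from 0 h to 24 h (left) and for differences between treatments or lines at 0 h (middle) and 24 h (right), filled where the edgeR adjusted p was under 0.01. Smyd1 has the widest intervals and the largest values, from -2.04 to 5.04, while the Smyd2, Smyd4 and Smyd5 values lie between -0.64 and 0.34.

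Per kilobase of exon, Smyd2 had the highest level of the 5 genes in each of the 10 groups, at 31.2% to 48.3% of the family's summed CPM per kilobase. When levels were divided by the longest transcript instead, Smyd5 came first in SMYD3 CL5 at 0 h and second in each of the other 9 groups. Smyd4 and Smyd5 followed at 19.5% to 27% and 16.8% to 27.3%, and their libraries overlapped in all groups but siSMYD3#2 at 0 h, with Smyd5 above Smyd4, and siCtrl at 24 h, with Smyd4 above Smyd5. Smyd3 made up 1.5% to 6.82%. Smyd1 went from 0.305% of the sum in vector cells at 0 h to 21.4% in siCtrl at 24 h, where it came second to Smyd2 with overlapping libraries, or after Smyd2 and Smyd5 by the longest transcript. In the siRNA groups at 0 h, Smyd1 and Smyd3 also overlapped, as the TRIzol libraries put Smyd1 last. The family sum itself was 36.1 to 55 CPM per kilobase.

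**Figure D5:**
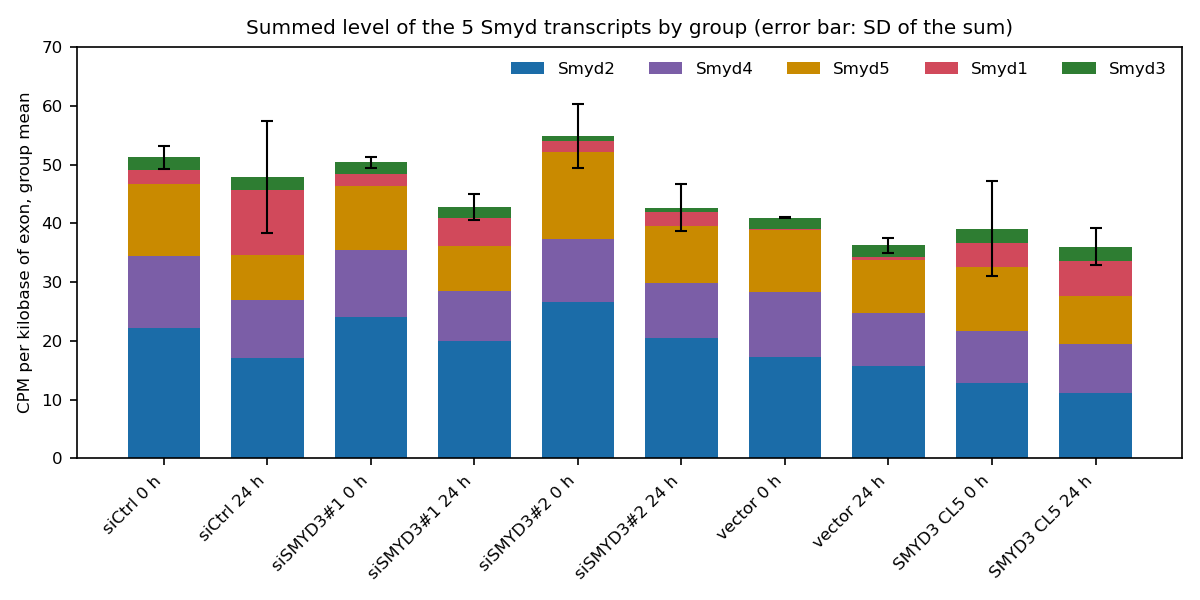
Stacked bars of the group means of the 5 genes in CPM per kilobase of exon, with the SD of the summed level over 3 libraries (siRNA groups) or 2 libraries (vector and SMYD3 CL5). The sum lies between 36.1 and 55, and Smyd1 takes 0.305% of it in vector cells at 0 h and 21.4% in siCtrl at 24 h.

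Over the 26 libraries, centred as above, Smyd1 and Smyd2 ran opposite to each other (r = -0.828) and Smyd2 ran with Smyd5 (r = 0.781), while r of Smyd3 with each of the others lay between -0.27 and 0.249. With Myog, Smyd2 had r = -0.814, Smyd4 -0.696, Smyd5 -0.581 and Smyd3 0.049. Some of these values differed between the 18 siRNA and the 8 overexpression libraries. With Myog, r was -0.042 and 0.665 for Smyd3 and -0.768 and -0.122 for Smyd5. For Smyd3 it was 0.259 and -0.566 with Smyd4 and -0.395 and 0.468 with Smyd5. Smyd1 with Smyd2 (-0.79 and -0.88) and Smyd2 with Smyd5 (0.86 and 0.659) kept their sign. Among 11205 genes averaging 100 counts or more, those most like Smyd1 included Ttn, which encodes the sarcomere spring titin (r = 0.944), and Trim55, a sarcomere-bound ubiquitin ligase (0.936). Those most like Smyd2 were Atic (0.952), an enzyme of purine synthesis, Uck2 (0.947), a kinase of pyrimidine salvage, and Rps6ka4 (0.943). Smyd5 was most like Wdr4 (0.958), Mybbp1a (0.951) and Spire2 (0.948). Smyd4 had weaker neighbours in Gpd1l (0.853), Zfp703 (0.827) and 1700012B09Rik (0.826). Within the 18 siRNA libraries these 3 ranked only 263, 123 and 95 in likeness to Smyd4. The nearest to Smyd3 were Cela1 (0.841), Dazap2 (0.812) and Cables2 (0.799), and within the 8 overexpression libraries r was 0.55, -0.501 and -0.356 for these 3. The libraries share treatment and time, and r is given with no test.

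Of the 21 tested partners and substrates reported for SMYD proteins, 4 rose and 6 fell in siCtrl from 0 h to 24 h (median -0.19), where 29.4% of all genes passed. Unc45b, the myosin chaperone that works with Hsp90, rose by 7.67, and Hsp90aa1 fell by 1.02 on the log2 scale. At 24 h, 1 was higher and 3 lower with siSMYD3#1, and 1 was lower with siSMYD3#2, beside 5.85% and 3.7% of all genes. Unc45b was lower with both (-3.90 ± 0.357, edgeR adjusted p = 1.6e-06; -2.11 ± 0.318, adjusted p = 0.000431), and Rb1 was lower with siSMYD3#1 (-0.76, adjusted p = 0.00108). Between SMYD3 CL5 and vector edgeR called 1 of the 21 at each time and DESeq2 3 at each time, with 4 at 0 h and 5 at 24 h at an unadjusted p under 0.05. The edgeR call was Flt1, which encodes the VEGF receptor reported as a Smyd3 substrate, and it was lower than in vector at both times (-6.06 and -5.22, adjusted p = 0.00384 and 0.00581).

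Among 32 other lysine methyltransferases with a SET domain, all of which were tested, 2 rose and 7 fell in siCtrl (median -0.03), a share near the 29.4% of all genes that passed. Ezh1 rose by 1.15, and among those that fell were Ezh2 (-0.88), the catalytic subunit of Polycomb complex 2 in dividing cells, and Suv39h2 (-1.30). The counts were 2 and 6 with siSMYD3#1 and 2 and 5 with siSMYD3#2, beside 25.4% and 19% of all genes. Between either siRNA and siCtrl, between the siRNAs, or between SMYD3 CL5 and vector, 0 of the 32 passed at either time with edgeR. In these comparisons 0.531% to 5.85% of all genes passed, so few or none of 32 genes would pass at that share. Of the 32, 1 to 8 had an unadjusted p under 0.05. DESeq2 called 1 between SMYD3 CL5 and vector at each time and 0 in the siRNA comparisons. Of 12 tested proteins with a MYND finger outside the family, 1 rose and 1 fell in siCtrl, beside 29.4% of all genes: the corepressor Cbfa2t3 (6.23) and Zmynd19 (-1.10). Cbfa2t3 was the 1 of 12 that was lower at 24 h with each siRNA (-3.43, edgeR adjusted p = 0.000218; -2.22, adjusted p = 0.00618). Of all genes, 5.85% and 3.7% passed there, so 1 of 12 is no result about the MYND proteins.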

How the data were processed

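The authors made stranded mRNA libraries (TruSeq, dUTP) and sequenced paired-end reads on a NextSeq instrument, checked with FastQC 0.11.5. They aligned to GRCm38 with HISAT2 2.1.0, counted per gene with featureCounts (Subread 1.6.3) and deposited raw counts. Strand setting, treatment of multimapping reads and annotation release are not given in the sources used here. No 2 libraries held identical values. Symbols, coordinates and exon lengths were taken from GENCODE M21, which holds 54409 of the listed genes.

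The deposited counts were tested in R 4.3.3 with edgeR 4.0.16 (filterByExpr, TMM, robust quasi-likelihood, Benjamini-Hochberg over all genes, threshold 0.01). The siRNA fit held 18 libraries in 6 groups with extraction method as covariate (15820 genes), after the study's own model, and the overexpression fit 8 libraries in 4 groups (17835 genes). CPM values used TMM-scaled library sizes, and log2 CPM a prior count of 2. DESeq2 1.42.0 (unpaired, same covariate), RLE scaling, no low-count filter, other covariates, NucleoSpin libraries alone and leaving out each library were alternatives. Scripts were tested on simulated data.

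Replicate numbers came from the study's list of libraries. Same-numbered siRNA libraries deviated together (r = 0.366 to 0.851, 3 pairs per comparison), but within NucleoSpin r was -0.041 to 0.177, so the numbers there follow extraction. In the overexpression r was -0.097 to 0.483. Members and gene lists were chosen with earlier results of these data known. Named besides members and Myog were, per list and comparison described, up to 2 genes per direction with the smallest adjusted p, and the 3 genes most correlated with each member, of which 1 is not reported here. Intervals cover 95%.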

Additional observations from a re-analysis of the deposited data

How the results depend on the processing

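Of 1563 recomputed values for the 5 genes, 1443 kept their direction and their side of the threshold, 41 no longer passed, 38 newly passed and 41 changed sign. The cause was not tested. Among the members' calls, the lower Smyd3 with siSMYD3#2 than with siCtrl at 24 h held in every alternative run.

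Without the extraction term, 10 calls no longer passed: in siCtrl over time Smyd1 (2.26), Smyd2 (-0.38) and Smyd5 (-0.67), with siSMYD3#1 over time Smyd4 (-0.41) and Smyd5 (-0.49), with siSMYD3#2 over time Smyd2 (-0.38) and Smyd5 (-0.60), and Smyd3 for siSMYD3#2 against siCtrl at 0 h (-1.43) and between the siRNAs at 24 h (1.27) and 0 h (1.27). With all 26 libraries in 1 fit, 6 time effects no longer passed: Smyd2 (-0.40) and Smyd5 (-0.65) in siCtrl, Smyd4 (-0.42) and Smyd5 (-0.50) with siSMYD3#1, and Smyd2 (-0.40) and Smyd5 (-0.61) with siSMYD3#2, while Smyd1 between the siRNAs at 0 h (-0.017) and Smyd3 in vector over time (0.013) changed sign.

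Within NucleoSpin libraries, 8 results newly passed: Smyd1 with siSMYD3#1 over time (1.16), for siSMYD3#1 (-1.15) and siSMYD3#2 (-2.33) against siCtrl at 24 h, between the siRNAs at 24 h (1.18) and for the siSMYD3#2 difference of effects (-2.10), Smyd3 with siSMYD3#2 over time (-0.63), and Smyd5 between the siRNAs at 24 h (-0.41) and 0 h (-0.48). Smyd4 between the siRNAs at 0 h changed sign (-0.002). The term for extraction by time, chosen after seeing the data, let pass Smyd1 with siSMYD3#1 over time (1.98) and for siSMYD3#1 (-1.47) and siSMYD3#2 (-2.07) against siCtrl at 24 h, and Smyd5 for siSMYD3#2 against siCtrl at 24 h (0.34) and between the siRNAs at 24 h (-0.35) and 0 h (-0.46).

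With no low-count filter, newly passing were Smyd1 over time with siSMYD3#1 (1.19), siSMYD3#2 (0.80) and vector (1.94), against siCtrl at 24 h (-1.64 and -2.02) and in the differences of effects (-1.45 and -1.84), and Smyd5 between the siRNAs at 0 h (-0.46), while Smyd1 there changed sign (-0.013). With DESeq2, Smyd5 between the siRNAs at 0 h (-0.46) and Smyd1 in vector over time (1.96) newly passed, and Smyd1 between the siRNAs at 24 h (-0.26) and 0 h (-0.037) and Smyd3 over time in vector (0.015) and SMYD3 CL5 (-0.004) changed sign. RLE scaling changed the sign of Smyd1 between the siRNAs at 0 h (-0.001) and of Smyd3 in vector over time (0.009). At a threshold of 0.05, newly passing were Smyd4 in siCtrl over time (-0.32), Smyd2 with siSMYD3#1 over time (-0.27), and Smyd5 for siSMYD3#2 against siCtrl at 24 h (0.34) and between the siRNAs at 24 h (-0.36) and 0 h (-0.46). With the replicate block, Smyd4 with siSMYD3#1 over time no longer passed (-0.40) and Smyd5 between SMYD3 CL5 and vector at 0 h changed sign (rounded to -0.0). The block changed no other call of a member.

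Leaving out 1 library at a time changed a call or a sign in these results, with the lowest and highest log2 values. For Smyd1 they were siCtrl over time 2.30 to 2.98, siSMYD3#2 against siCtrl at 24 h -2.87 to -1.59, siSMYD3#1 against siCtrl at 0 h -0.47 to 0.054, siSMYD3#2 against siCtrl at 0 h -0.40 to 0.004, siSMYD3#1 against siSMYD3#2 at 24 h -0.10 to 1.09, siSMYD3#1 against siSMYD3#2 at 0 h -0.30 to 0.23, SMYD3 CL5 against vector at 24 h 3.16 to 4.05 and SMYD3 CL5 against vector at 0 h 4.95 to 5.22. For Smyd4 they were siCtrl over time -0.39 to -0.26, siSMYD3#1 over time -0.56 to -0.31, siSMYD3#2 against siCtrl at 24 h -0.16 to 0.005, siSMYD3#1 against siSMYD3#2 at 24 h -0.24 to 0.025 and SMYD3 CL5 over time -0.21 to 0.022. For Smyd2 they were siSMYD3#1 over time -0.35 to -0.23, siSMYD3#2 over time -0.45 to -0.29, siSMYD3#1 against siSMYD3#2 at 24 h -0.12 to 0.001 and SMYD3 CL5 over time -0.43 to 0.041. For Smyd5 they were siSMYD3#1 against siCtrl at 24 h -0.073 to 0.024, siSMYD3#1 against siSMYD3#2 at 0 h -0.52 to -0.41, SMYD3 CL5 over time -0.91 to 0.24 and SMYD3 CL5 against vector at 0 h -0.60 to 0.57. For Smyd3 they were vector over time -0.12 to 0.086, SMYD3 CL5 over time -0.28 to 0.41 and SMYD3 CL5 against vector at 0 h -0.060 to 0.65.

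The number of genes called moved by over 1.5 times in every comparison: the lowest and highest were 1676 and 6642 for siCtrl over time (4655 reported), 1053 and 6043 for siSMYD3#1 over time (4016 reported), 583 and 5069 for siSMYD3#2 over time (3004 reported), 102 and 1778 for siSMYD3#1 against siCtrl at 24 h (926 reported), 18 and 1426 for siSMYD3#2 against siCtrl at 24 h (586 reported), 15 and 561 for siSMYD3#1 against siCtrl at 0 h (226 reported), 5 and 210 for siSMYD3#2 against siCtrl at 0 h (84 reported), 25 and 1486 for siSMYD3#1 against siSMYD3#2 at 24 h (532 reported), 11 and 468 for siSMYD3#1 against siSMYD3#2 at 0 h (185 reported), 2 and 277 for siSMYD3#1 effect at 24 h minus effect at 0 h (34 reported), 0 and 230 for siSMYD3#2 effect at 24 h minus effect at 0 h (3 reported), 0 and 203 for vector over time (0 reported), 0 and 1037 for SMYD3 CL5 over time (0 reported), 0 and 1334 for SMYD3 CL5 against vector at 24 h (172 reported), 0 and 2369 for SMYD3 CL5 against vector at 0 h (191 reported), 0 and 12 for SMYD3 CL5 effect at 24 h minus effect at 0 h (0 reported). In the TRIzol libraries of the knockdown at 0 h, Smyd1 rests on 5 to 6 counts. These libraries held between 20448760 and 29496404 counts in all.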
